A study of Mus musculus with 6 samples.

Results

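The miR-99/100 and miR-125 families were followed in mouse fetal liver through 10 mature miRNAs, all of which were among the 1626 miRNAs counted. The members were chosen by name: the 5 guide strands mmu-miR-99a-5p, mmu-miR-99b-5p, mmu-miR-100-5p, mmu-miR-125a-5p and mmu-miR-125b-5p, and the 5 passenger strands mmu-miR-99a-3p, mmu-miR-99b-3p, mmu-miR-125a-3p, mmu-miR-125b-1-3p and mmu-miR-125b-2-3p, written below without the species prefix mmu. A guide strand is the arm of the hairpin that is loaded into Argonaute and regulates mRNAs, and the passenger strand is the opposite arm, which is mostly degraded. The libraries came from C57BL/6J embryos, 3 wild-type (WT, numbered 1 to 3) and 3 homozygous for a deletion of the miR-144/451 locus (KO, labelled miR-144/451-/-, numbered 4 to 6). Total RNA of fetal liver cells was used for small RNA libraries, and embryonic age is not stated. Nothing in the labels says whether libraries of a genotype derive from different embryos. P-values therefore describe only the spread among these libraries, and part of it may be technical.

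These families are conserved from flies to mammals. The miR-125 family is the vertebrate counterpart of the worm miRNA lin-4, and miR-99 and miR-100 are related to the miR-10 family. They lie in paralogous clusters, each with a let-7 hairpin between them, and members of a cluster can be transcribed together. In the blood system they are known as miRNAs of haematopoietic stem and progenitor cells. miR-125 raises the number of these cells, in part by repressing pro-apoptotic genes, and miR-99 and miR-100 repress mTOR and the IGF1 receptor. Outside blood, miR-99a, miR-100 and miR-125b are also known from mesenchymal, endothelial and muscle cells, and fetal liver holds several of these beside its erythroid precursors and hepatoblasts.

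The guide strands are printed here because their seeds, bases 2 to 8 and in capitals, divide the members into families with different targets. All 10 members were matched to RefSeq mature sequences (GRCm38.p6), which are written 5′ to 3′.
miR-99a-5p: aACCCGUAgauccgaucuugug
miR-100-5p: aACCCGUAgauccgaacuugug
miR-99b-5p: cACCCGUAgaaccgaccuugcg
miR-125b-5p: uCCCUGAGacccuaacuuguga
miR-125a-5p: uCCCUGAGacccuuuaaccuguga
miR-351-5p: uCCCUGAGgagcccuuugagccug
The first 3 share one seed and the last 3 another. Counted from 1 at the 5′ end, miR-100-5p differs from miR-99a-5p by the single substitution U16A, and miR-99b-5p differs from miR-99a-5p at 4 positions, A1C, U11A, U16C and U21C. miR-125b-5p and miR-125a-5p are identical over their first 13 bases and differ in length, 22 against 24 bases. miR-351-5p, an X-linked miRNA that is not a member, was found by its seed and is identical to both over its first 8 bases and then differs. RefSeq holds 2 more mature miRNAs with this seed, miR-6367 and miR-6394, which were not analysed here.

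The passenger strands are shown for their differences, since they tell the hairpins apart where the guides do not.
miR-99a-3p: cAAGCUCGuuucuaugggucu
miR-99b-3p: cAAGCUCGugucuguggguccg
miR-125a-3p: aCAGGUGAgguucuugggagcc
miR-125b-1-3p: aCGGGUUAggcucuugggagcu
miR-125b-2-3p: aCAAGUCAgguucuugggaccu
miR-99a-3p and miR-99b-3p have one seed, and each of the others has a seed found in no other RefSeq mouse mature miRNA. miR-125b-5p is made identically by 2 hairpins, Mir125b-1 and Mir125b-2, and their 3p arms differ at 5 positions, G3A, G4A, U7C, C11U and G20C. A 3p count can therefore be placed on one hairpin and a miR-125b-5p count cannot.

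In GENCODE M21 (GRCm38) the hairpins lie in 3 clusters, all on the plus strand. On chromosome 17, Mir99b (chr17:17830188-17830257) and Mir125a (chr17:17830812-17830879) are separated by 554 bases with Mirlet7e between them. Mir99b lies in an intron of Spaca6 and Mir125a overlaps an annotated exon of it. On chromosome 16, Mir99a (chr16:77598936-77599000) and Mir125b-2 (chr16:77646273-77646343) are 47272 bases apart in introns of the long non-coding RNA gene Mir99ahg, with Mirlet7c-1 between them. On chromosome 9, Mir100 (chr9:41531425-41531504) and Mir125b-1 (chr9:41581926-41582002) are 50421 bases apart in introns of the non-coding genes Gm49317 and 3110039I08Rik, with Mirlet7a-2 between them. Mir125b-1 also overlaps an exon of the non-coding gene Gm28119 on the same strand, and Mir100 an exon of the non-coding gene Gm48742 on the opposite strand.

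Libraries held 16243894 to 27089133 miRNA counts. The deleted locus took 17.6% to 24.1% of counts in WT and 0.0214% to 0.0231% in KO, so the genotype labels matched in all 6 libraries. Levels below are counts per 1000000 (CPM) after TMM scaling, which sets libraries to a common level of the typical miRNA. Without that scaling the median log2 fold of all tested miRNAs was 0.34, against -0.014 with it. The counts freed by the lost locus are a possible reason, which was not tested. Markers of liver cell types were present in every library, with the hepatocyte miRNA miR-122-5p at 29323 to 117798 CPM and the pan-blood miRNA miR-142a-3p at 18219 to 29809 CPM. In RNA from whole tissue, fewer cells of a type and less of a miRNA per cell cannot be told apart.

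The families were a small part of fetal liver miRNA, and the chromosome 17 guides were the most abundant members. The 10 members took 0.135% ± 0.0589 of miRNA counts in WT and 0.124% ± 0.0469 in KO (SD, n = 3 each). Mature lengths ran from 21 to 24 bases, so counts were compared between members without a length correction. miR-125a-5p stood highest, at rank 135 of 876 tested miRNAs, followed by miR-99b-5p (158), miR-99a-5p (182), miR-125b-5p (227) and, far lower, miR-100-5p (456). That order of the guides held within each of the 6 libraries, although the ranges of miR-125a-5p and miR-99b-5p, and of miR-99b-5p and miR-99a-5p, overlapped between libraries. Below them, miR-100-5p and miR-125b-2-3p changed places: the former was higher in 3 of 6 libraries. The lowest members were miR-125b-1-3p, at 13 to 57 counts per library, and miR-99a-3p, at 9 to 33 counts, where counting error is large.

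miR-125a-5p, which represses pro-apoptotic Bak1 in haematopoietic stem cells, was counted at 380.4 CPM in WT library 1, 447 in WT library 2 and 1050.0 in WT library 3. The KO libraries 4, 5 and 6 held 363.9, 296.9 and 792 CPM. WT library 3 and KO library 6 lay well above the other 4, and the genotypes overlapped. The WT mean was 626 ± 369 and the KO mean 484 ± 269 CPM (SD, n = 3 each). The log2 fold was -0.37 (SE 0.51, 95% interval -1.58 to 0.84; edgeR Benjamini-Hochberg adjusted p = 0.838). Its direction rested on WT library 3: the fold was 0.14 without it and -0.92 without KO library 6.

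miR-125b-5p, whose overexpression causes leukaemia in mice, stood at 161.9, 103.1 and 182.9 CPM in WT and 88.3, 65.7 and 143.8 CPM in KO. KO library 6 lay among the WT values and the other KO libraries below all of them. The means were 149.3 ± 41.4 and 99.3 ± 40.2 CPM (SD, n = 3 each). This gave a log2 fold of -0.59 (SE 0.35, 95% interval -1.42 to 0.25; edgeR Benjamini-Hochberg adjusted p = 0.591), and -0.96 without KO library 6.

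miR-99b-5p stood at 305.1, 323.6 and 612.9 CPM in WT and 211.7, 232.6 and 403.2 CPM in KO, again with WT library 3 and KO library 6 highest. KO libraries 4 and 5 were below every WT library. Its log2 fold was -0.55 (SE 0.37, 95% interval -1.43 to 0.32; edgeR Benjamini-Hochberg adjusted p = 0.604), from 414 ± 173 to 282 ± 105 CPM (SD, n = 3 each). Leaving out WT library 3 moved the fold to -0.24, and leaving out KO library 6 moved it to -0.90. miR-99a-5p, its chromosome 16 paralogue, stood at 247, 192.6 and 379 CPM in WT and 148.4, 167.5 and 211.8 CPM in KO. The genotypes overlapped only through WT library 2 and KO library 6. Its log2 fold was -0.63 (SE 0.29, 95% interval -1.32 to 0.05; edgeR Benjamini-Hochberg adjusted p = 0.49), from 273 ± 95.9 to 175.9 ± 32.5 CPM (SD, n = 3 each), and the fold was -0.41 without WT library 3.

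miR-100-5p, the scarce member of the seed family and a repressor of mTOR, stood at 26.0, 7.46 and 11.4 CPM in WT and 7.66, 4.69 and 7.89 CPM in KO. WT library 1 was the highest by far, and WT library 2 fell within the KO range. The means were 14.9 ± 9.78 and 6.75 ± 1.78 CPM (SD, n = 3 each). This was the largest difference of the 10, a log2 fold of -1.14 (SE 0.48, 95% interval -2.29 to 0.01; edgeR Benjamini-Hochberg adjusted p = 0.439), and it was -0.47 without WT library 1.

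**Figure D1:**
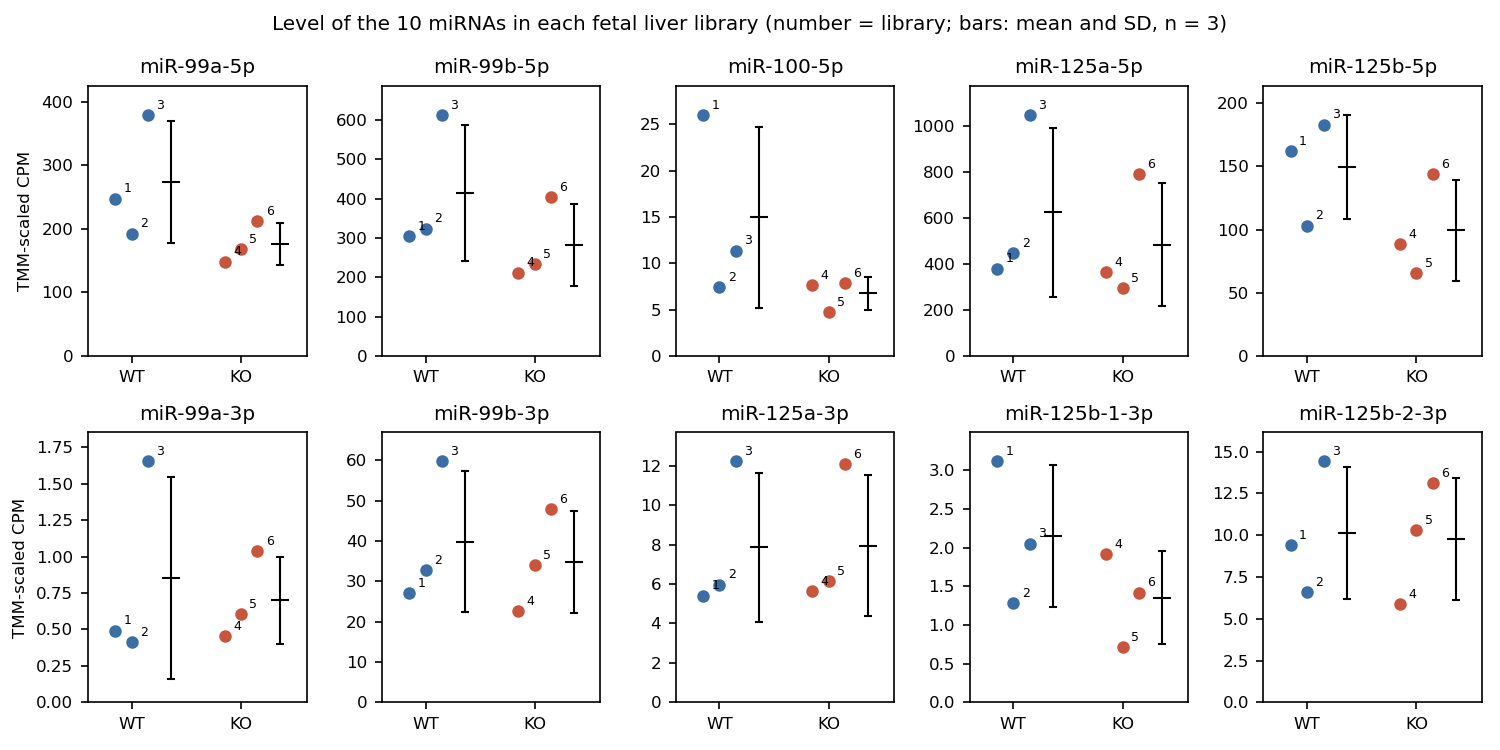
TMM-scaled CPM (linear axes from 0) of the 10 members in each library; points are libraries with their numbers, blue for WT and red for KO, and black bars are mean and SD (n = 3). WT library 3 and KO library 6 are the highest of their genotype for 8 members, and miR-100-5p and miR-125b-1-3p are instead highest in WT library 1.

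Of the 10 members, 0 passed the test between genotypes, where 0.799% of the 876 tested miRNAs did (edgeR, adjusted p under 0.05), and DESeq2 and limma-voom also called 0. At an unadjusted p under 0.05 edgeR gave 0 members, against 11.3% of all tested miRNAs. DESeq2 gave 2 members and limma-voom 0. The share of all miRNAs was not taken for these tools, so the 2 cannot be set against a background. The 3 KO values were apart from the 3 WT values for 0 members, against 21.8% of tested miRNAs. Folds lay below 0 for 9 of 10 members, against 52.5% of all tested miRNAs. The members' median was -0.46 on the log2 scale, against -0.014. The members share hairpins, clusters and libraries, so these 9 are not separate observations. The intervals still allow log2 falls of over 1 for 9 of the 10, so a p above the threshold does not show equal levels.

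**Figure D2:**
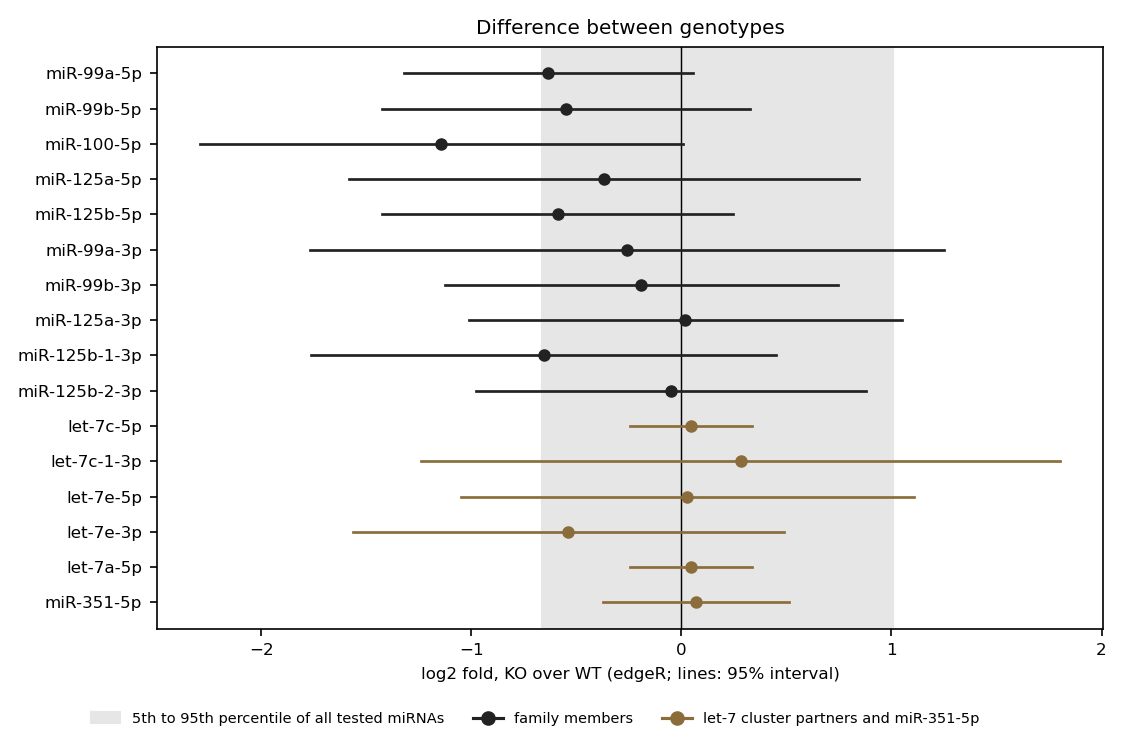
Log2 fold of KO over WT for the 10 members (black) and for 5 let-7 cluster partners and miR-351-5p (brown), with 95% intervals; the grey band holds the 5th to 95th percentile of the 876 tested miRNAs. Every interval includes 0, and the guide strands lie between -0.37 and -1.14.

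The guide strands had more negative folds than most passenger strands, a difference tested further on through arm ratios. The 5 guides had log2 folds of -1.14 to -0.37, and these stayed below 0 under each of the 4 other scalings and both other tools, reaching -0.02 for miR-125a-5p with no scaling factor. Without WT library 3 the guide miR-125a-5p turned to 0.14, and the other 4 guides stayed below 0 without any single library. Among passengers, miR-125b-1-3p stood at -0.66 (SE 0.47), miR-99a-3p at -0.26 (SE 0.64), miR-99b-3p at -0.19 (SE 0.39), miR-125b-2-3p at -0.05 (SE 0.39) and miR-125a-3p at 0.02 (SE 0.43). Their edgeR Benjamini-Hochberg adjusted p lay between 0.631 and 0.999, and 4 of these 5 changed sign under another scaling or tool or without a single library.

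Summed over the guides, the miR-99/100 seed family stood at 578, 523.7 and 1003 CPM in WT and 367.8, 404.7 and 622.9 CPM in KO, a log2 ratio of the means of -0.59. The miR-125 guides summed to 542, 550.1 and 1233 CPM in WT and 452, 362.5 and 936 CPM in KO, a log2 ratio of -0.41. WT library 3 was the highest for both sums and KO library 6 the second highest. Leaving out WT library 3 moved the miR-125 ratio to 0.01 and the miR-99/100 ratio to -0.33. Leaving out KO library 6 moved them to -0.92 and -0.87.

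The members varied strongly between libraries of one genotype, and most of them in a similar way. The within-genotype SD of log2 CPM was 0.39 to 0.77 for the 5 guides, against a median of 0.32 over all tested miRNAs. All 10 members lay above that median, and miR-125a-5p had a larger SD than 94.4% of tested miRNAs. WT library 3 and KO library 6 were both the highest of their genotype for 8 members. For 6 members, miR-99b-5p, miR-125a-5p and 4 passengers, both lay above all the other 4 libraries, as did 22.9% of tested miRNAs.

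The same 2 libraries held the most hepatocyte miRNAs. In WT libraries 1 to 3 miR-122-5p was at 29323, 50130.3 and 117798 CPM, and in KO libraries 4 to 6 at 37308, 42829 and 92264 CPM. All 6 hepatocyte miRNAs listed were counted in every library, and their sum ran from 37953 to 138244 CPM in WT and 45657 to 107583 CPM in KO. Their part in the members' levels was not tested beyond the following values. Between KO library 6 and WT library 3 alone, the log2 ratio was -0.84 for miR-99a-5p, -0.60 for miR-99b-5p, -0.53 for miR-100-5p, -0.41 for miR-125a-5p and -0.35 for miR-125b-5p. Between KO libraries 4 and 5 and WT libraries 1 and 2 it was -0.48, -0.50, -1.44, -0.32 and -0.78 in the same order. For the passengers miR-99a-3p, miR-99b-3p, miR-125a-3p, miR-125b-1-3p and miR-125b-2-3p the first ratio was -0.68, -0.32, -0.02, -0.53 and -0.14 and the second 0.23, -0.07, 0.05, -0.74 and 0.02. The first ratio compares 1 library with 1 and the second 2 with 2, and neither was tested.

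Fits chosen after seeing the data gave smaller errors for all 5 guides with miR-122-5p as a covariate, and for the guides other than miR-100-5p without the pair of libraries. WT library 3 and KO library 6, highest in miR-122-5p, were both the highest of their genotype for 8 members. Leaving them out, or fitting that covariate, takes spread out of these members by choice, so no conclusion is drawn from the smaller errors. With miR-122-5p as a covariate, miR-99b-5p stood at -0.50 (SE 0.13) and miR-99a-5p at -0.59 (SE 0.18). Their adjusted p (edgeR, Benjamini-Hochberg) were 0.115 and 0.168, and 0 members passed, where 2.17% of tested miRNAs did. Without WT library 3 and KO library 6, miR-99b-5p stood at -0.53 (SE 0.16) and miR-125b-5p at -0.82 (SE 0.33). The adjusted p (edgeR, Benjamini-Hochberg) were 0.373 and 0.386, and again 0 passed, where 0.348% of the 863 miRNAs then tested did. At an unadjusted edgeR p under 0.05 these fits gave 3 and 2 of the 10 members, against 18.4% and 12.5% of all tested miRNAs.

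**Figure D3:**
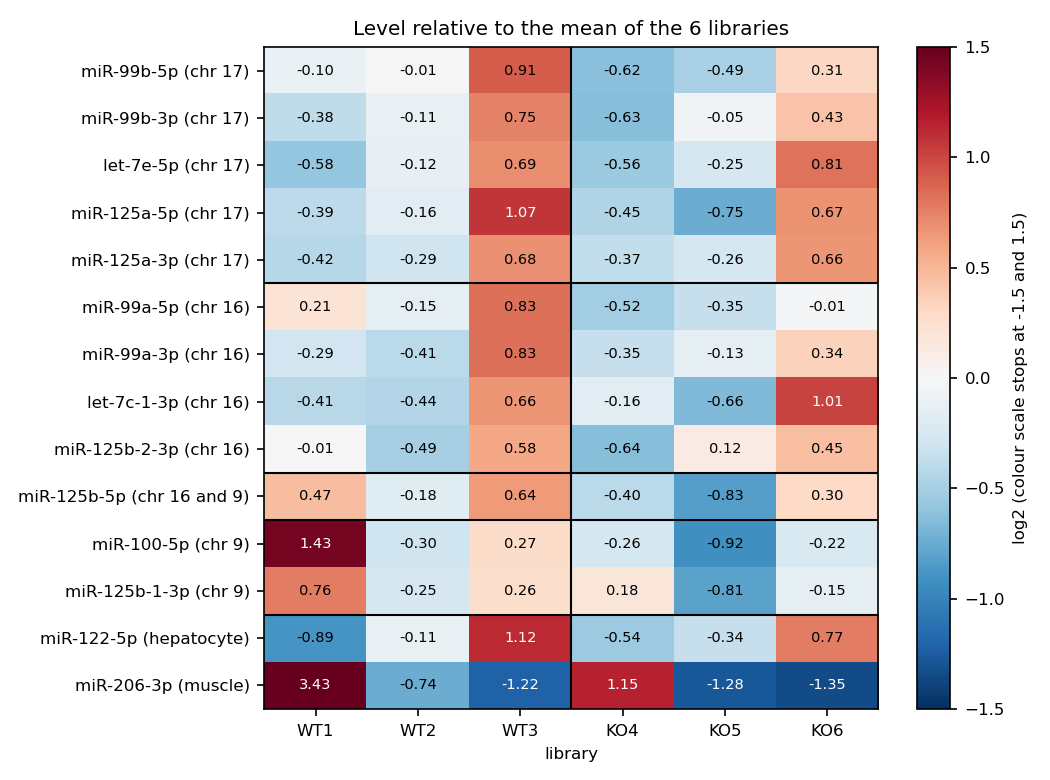
Log2 CPM of members, 2 let-7 partners and 2 markers in each library, relative to each miRNA's mean over the 6 libraries; rows are grouped by genomic cluster and columns are libraries, red above and blue below the mean. The chromosome 17 rows are red in WT3 and KO6, as is miR-122-5p, and the chromosome 9 rows are reddest in WT1, as is miR-206-3p.

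The chromosome 9 members had another profile. miR-100-5p lay 1.43 log2 units above its 6-library mean in WT library 1, and miR-125b-1-3p 0.76 above its own. In WT library 3 they lay 0.27 and 0.26 above, where miR-125a-5p lay 1.07 above. WT library 1 also held the most muscle miRNAs: miR-206-3p, a skeletal muscle miRNA, reached 203.8 CPM there and 41.8 CPM in KO library 4, while the remaining 4 libraries held 6.97 to 10.9 CPM. All 4 muscle miRNAs listed were counted in every library, with sums of 15.1 to 422.8 CPM in WT and 14.0 to 87.8 CPM in KO. Their part in the level of miR-100-5p was not tested.

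The 3p arms of the 2 hairpins that make miR-125b-5p were counted unequally. Of the 3p counts of both, miR-125b-1-3p took 24.9%, 16.3% and 12.5% in WT libraries 1 to 3 and 24.5%, 6.50% and 9.76% in KO libraries 4 to 6. The Wilson 95% intervals were 19.7 to 30.9, 11.7 to 22.2 and 9.32 to 16.5 in WT and 18.4 to 31.9, 3.84 to 10.8 and 7.17 to 13.2 in KO, covering counting error only. The chromosome 9 share was largest in WT library 1 and KO library 4, the libraries with the most muscle miRNAs, whose part was not tested. By genotype it averaged 17.9% ± 6.36 in WT and 13.6% ± 9.6 in KO (SD, n = 3 each), a difference within the spread. Most 3p counts came from the chromosome 16 hairpin in every library.

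Arm use was compared through the log2 ratio of 5p to 3p counts, which library scaling does not touch. The 5p arm dominated the miR-99a, miR-99b, miR-125a and miR-100 hairpins, but to different degrees. For miR-125b the 5p counts of both hairpins together were set against each 3p arm, so arm use of either hairpin alone was not measured. Per 100 counts of the 5p arm there were 0.199 to 0.489 counts of miR-99a-3p, 8.86 to 14.7 of miR-99b-3p and 1.16 to 2.07 of miR-125a-3p. miR-99a and miR-99b, with the same seeds on both arms, thus differed widely in how much of the passenger strand remained. miR-100 had 1326 counts of its 5p arm over all libraries and 3 of its 3p arm, found in WT library 1 (2 counts) and KO library 5 (1 count).

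The KO minus WT difference of this log2 ratio was below 0 for 4 of 5 ratios, against 46.8% of the 297 hairpins tested. The 5 include both miR-125b ratios, which share the same 5p counts. Of the 5, 0 passed the test, as for 0% of all hairpins (limma, adjusted p under 0.05). On simulated data this test recovered 47.5% of log2 shifts of 2, so a count of 0 does not show equal arm use. At an unadjusted limma p under 0.05 there were 0 of the 5, against 5.72% of hairpins. Per 100 counts of miR-99b-5p, miR-99b-3p had 8.86, 10.1 and 9.75 counts in WT and 10.7, 14.7 and 11.9 in KO, so that the 3 KO values lay above the 3 WT values. miR-125a-3p did likewise, at 1.42, 1.33 and 1.16 counts per 100 of miR-125a-5p in WT and 1.55, 2.07 and 1.52 in KO. Of all hairpins tested, 7.07% were apart in this direction. The log2 ratios were lower by 0.36 (difference -0.36, SE 0.20) for miR-99b and by 0.38 (difference -0.38, SE 0.20) for miR-125a, with limma Benjamini-Hochberg adjusted p of 0.815 and 0.802. For miR-99a and for miR-125b-5p over miR-125b-2-3p the differences were -0.51 (SE 0.30) and -0.57 (SE 0.31), and for miR-125b-5p over miR-125b-1-3p 0.04 (SE 0.33), with overlapping genotypes. KO library 5 weighed on several of these: without it the difference was -0.24 for miR-99b and for miR-125a and -0.23 for miR-125b-5p over miR-125b-2-3p. For miR-99a, leaving out WT library 3 gave -0.84 and leaving out WT library 1 gave -0.33.

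**Figure D4:**
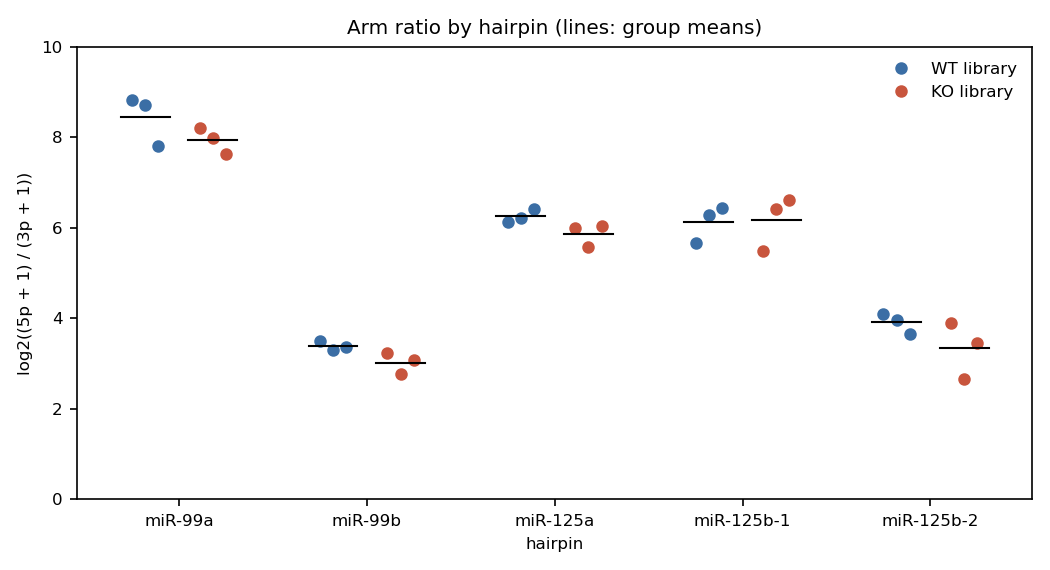
Log2 ratio of 5p to 3p counts, with 1 added to each, for 5 arm pairs. The miR-125b pairs set the 5p counts of both hairpins together against each 3p arm. Points are libraries, blue WT and red KO, and lines are group means. By group means the ratio is highest for miR-99a and lowest for miR-99b, and the KO points of miR-99b and miR-125a lie below their WT points.

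The let-7 partners of the clusters were compared from a list set by genomic position. Of 7 partners, 5 were tested and 0 passed (edgeR adjusted p under 0.05; 0 also at an unadjusted p under 0.05 by edgeR, DESeq2 and limma-voom). let-7e-5p, a let-7 family repressor of growth genes made between Mir99b and Mir125a, stood at 323.1, 443.7 and 779 CPM in WT and 327.6, 405.2 and 844.6 CPM in KO. It was highest in WT library 3 and KO library 6, like its neighbours, but its log2 fold was 0.03 (SE 0.45; edgeR Benjamini-Hochberg adjusted p = 0.999). let-7c-1-3p, from the chromosome 16 cluster, was at 0.28 (SE 0.64) and let-7e-3p at -0.54 (SE 0.43). Their adjusted p (edgeR, Benjamini-Hochberg) were 0.959 and 0.66.

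The other partners say little about the clusters. The counts of let-7c-5p lay within 2.25% of those of let-7a-5p in each library, so they were read as 1 signal, at a log2 fold of 0.05 (SE 0.12) each. let-7a-2-3p had 1 count in all, and with miR-100-3p it was too low to be tested. By contrast, 0 of the 10 members had counts within 5% of another miRNA in every library. miR-99a-5p and miR-100-5p, which differ by a single base, differed by 9.51-fold or more in counts in each library, so their counts were not duplicates of each other. How reads matching both were assigned is not stated in the sources used.

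miR-351-5p was the largest source of the miR-125 seed among the 3 guides compared. It stood at 869, 741 and 1056 CPM in WT and 954.7, 806.9 and 1038 CPM in KO, a 1.42-fold range over the 6 libraries against 3.54-fold for miR-125a-5p. Its share of the seed's counts was 61.6%, 57.4% and 46.1% in WT libraries 1 to 3 and 67.9%, 69.0% and 52.6% in KO libraries 4 to 6. On average the share was 55.0% ± 7.99 in WT and 63.1% ± 9.17 in KO (SD, n = 3 each), with overlapping genotypes. miR-125a-5p held 35.8% ± 9.52 and 30.5% ± 8.38 (SD, n = 3 each), also overlapping. In WT library 3 it was nearly level with miR-351-5p, at 45.9% against 46.1%. miR-125b-5p held 11.5%, 7.98% and 7.99% in WT libraries 1 to 3 and 6.28%, 5.62% and 7.29% in KO libraries 4 to 6, or 9.15% ± 2.01 and 6.39% ± 0.842 (SD, n = 3 each), so that its 3 KO shares lay below its 3 WT shares. Exact two-sided permutation tests of the 3 shares, chosen after their values were seen, gave p = 0.3 for miR-351-5p, 0.5 for miR-125a-5p and 0.1 for miR-125b-5p, the smallest that 3 against 3 libraries allow, or 0.45, 0.5 and 0.3 after Benjamini-Hochberg adjustment. The log2 fold of miR-351-5p was 0.07 (SE 0.19, 95% interval -0.37 to 0.51; edgeR Benjamini-Hochberg adjusted p = 0.964). In the other seed family miR-99b-5p held 58.5% ± 5.03 in WT and 59.9% ± 4.17 in KO, miR-99a-5p 39.1% ± 3.2 and 38.6% ± 4.0, and miR-100-5p the rest (SD, n = 3 each).

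**Figure D5:**
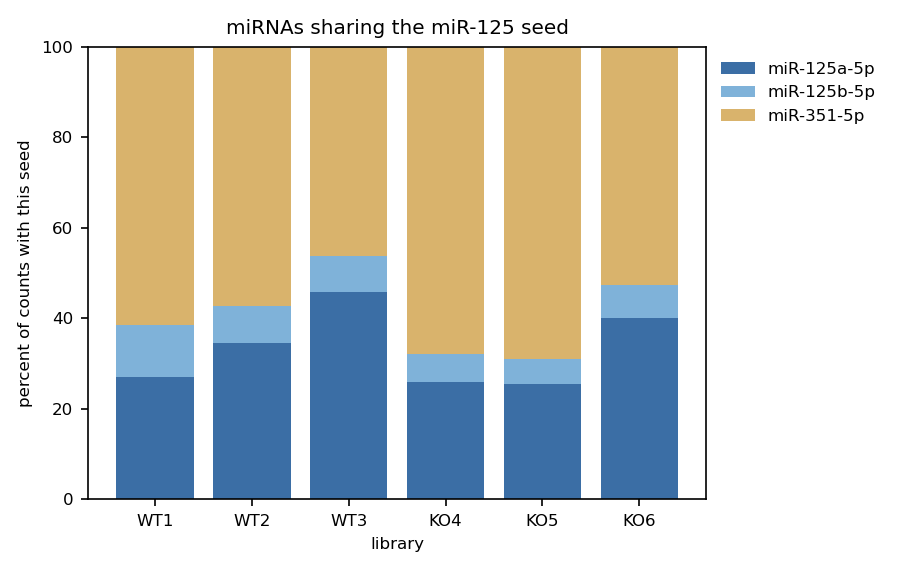
Share (percent) of the counts of miR-125a-5p, miR-125b-5p and miR-351-5p, which have the same bases 2 to 8, in each library; each bar adds to the whole. miR-351-5p takes between 46.1% and 69.0% and miR-125a-5p between 25.4% and 45.9%.

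The miRNAs with the most similar profiles over the 6 libraries were found by the root-mean-square difference of log2 CPM after centring each miRNA on its mean. This is a description over libraries that share composition and depth. For miR-125a-5p they were miR-770-5p (0.0987), miR-377-5p (0.106) and miR-299b-5p (0.112). For miR-99b-5p they were miR-127-3p (0.106), miR-200b-3p (0.123) and miR-409-5p (0.159), and for miR-99a-5p miR-145a-3p (0.163), miR-3102-3p (0.166) and miR-10a-5p (0.172). miR-125b-5p was nearest to miR-6944-3p (0.17), miR-3102-3p (0.172) and miR-487b-5p (0.191). miR-100-5p had no profile as close, the nearest being miR-183-5p (0.267), miR-204-5p (0.309) and miR-615-3p (0.314). Among the members themselves, miR-99b-5p lay 0.204 from miR-99a-5p and 0.246 from its cluster neighbour miR-125a-5p. miR-100-5p lay 0.755 and 0.899 from miR-99b-5p and miR-125a-5p of chromosome 17. Its nearest members were miR-125b-1-3p of its own cluster (0.334) and miR-125b-5p (0.481).

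Other miRNAs of blood progenitors were taken as a list of 15, none of them a member. Folds lay below 0 for 10 of them and their median was -0.27 (log2), against -0.014 for all tested miRNAs. By edgeR, DESeq2 and limma-voom 0 passed, and 0, 1 and 1 had an unadjusted p under 0.05. Among all tested miRNAs 11.3% did so by edgeR, and no such share was taken for the other tools. The list's most abundant miRNA, miR-223-3p, which acts in granulocyte precursors, stood at -0.55 (SE 0.24; edgeR Benjamini-Hochberg adjusted p = 0.459). The mesenchymal list had 8 of 9 folds below 0 and a median of -0.16. The endothelial list held only miR-126a-3p and miR-126a-5p, the 2 arms of the miR-126a hairpin, which is also known from blood stem cells. Both folds lay above 0, with a median of 0.11. Summed mesenchymal levels were 2322 to 3205 CPM in WT and 2085 to 3019 CPM in KO, highest in WT library 3 and KO library 6. Endothelial sums were 7323 to 10523 and 7734 to 11046 CPM, highest in the same libraries. The erythroid, myeloid and lymphoid lists had medians of -0.03, -0.28 and -0.31 over 7, 8 and 2 tested miRNAs. The hepatocyte list had 5 of 6 folds below 0 and a median of -0.20, and the muscle list 4 of 4 below 0 and a median of -2.02, with WT library 1 and KO library 4 far above the rest as given above. By edgeR 0 miRNAs of these lists or of the mesenchymal and endothelial lists passed. At an unadjusted edgeR p under 0.05 there were 2 of 7 erythroid miRNAs, against 11.3% of all tested miRNAs, and 0 of the other lists. At this unadjusted threshold DESeq2 gave 1 erythroid, 1 myeloid and 1 lymphoid miRNA, and limma-voom 2 erythroid and 1 myeloid. After adjustment DESeq2 called 1 miRNA of the erythroid list, where it called 15 over all miRNAs, and limma-voom called 0 of the list. The 1 was miR-210-3p, also known as a hypoxia-induced miRNA and named after its value was seen. The part of these cell types in the members' folds was not tested.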

How the data were processed

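Per the file headers, each library had a column of raw counts by mature miRNA and a percent column that the authors derived from the counts, the count as a percent of the library total. Per the submitters' processing notes, adapters were trimmed with cutadapt; aligner, annotation release and build are not given in the sources used here. HITS-CLIP is named in the design text, but the labels describe miRNA sequencing of total RNA, which was followed. Members and lists were chosen with earlier results of these data known. Counts were fitted in R 4.3.3 with edgeR 4.0.16 (quasi-likelihood F-test, TMM scaling, filterByExpr, which kept 876 of 1626 miRNAs including all 10 members). P-values were Benjamini-Hochberg adjusted over all tested miRNAs and called under 0.05. SE is the absolute log2 fold over the root of F. Arm ratios used limma 3.58.1 (trend) with 1 added to each arm, where each arm averaged at least 10 counts. Both were tested on simulated data. There edgeR recovered 37.9% of log2 changes of 1 and 96.9% of changes of 2, and 2.26% of its calls were false. The simulated dispersion followed the trend with abundance over all miRNAs. All 10 members varied more within genotypes than the median tested miRNA, so these rates may be too high for them. The arm test recovered 47.5% of log2 shifts of 2, and 5% of its calls were false, with the arms of a hairpin simulated independently. DESeq2 1.42.0 and limma-voom were alternatives. A count of 0 allows up to 0.111 to 0.185 CPM before TMM scaling (3 counts). Such limits and the Wilson intervals cover counting error only. Named miRNAs were the members, cluster partners, seed sharers, near-identical counts and the 3 nearest profiles of each guide. Within genotypes no pair of libraries matched within sampling noise (chi-square per degree of freedom 174 to 2712).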

Additional observations from a re-analysis of the deposited data

How the results depend on the processing

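None of the 10 members and none of the 5 tested cluster partners passed under the 7 other scalings, filters and tools or without any single library, and 0 members passed in both fits added after seeing the data. Over all miRNAs, 7 passed; 4 did so with RLE scaling and with upper-quartile scaling, 61 with no scaling factor, 1 with the deleted locus removed (its 3 products are then not tested), 15 with DESeq2 and 3 to 4 without 1 library. Signs changed as follows. miR-125a-3p stood at -0.059 with RLE scaling, -0.038 with the locus removed and -0.055 with DESeq2. Without single libraries it ran from -0.42 to 0.40, below 0 without WT library 1 (-0.18), WT library 2 (-0.20) or KO library 6. miR-125b-2-3p stood at 0.048 with upper-quartile scaling and 0.29 with no scaling factor, and ran from -0.35 to 0.20 without single libraries, above 0 without WT library 3 or KO library 4 (0.14). miR-99a-3p and miR-99b-3p stood at 0.090 and 0.15 with no scaling factor, and ran from -0.68 to 0.56 and from -0.50 to 0.14 without single libraries, above 0 without WT library 3. miR-99a-3p also stood at 0.20 without the library of each genotype highest in miR-122-5p. miR-125a-5p ran from -0.92 to 0.14, above 0 without WT library 3. The ratio of miR-125b-5p to miR-125b-1-3p differed by -0.041 with a pseudocount of 5 and by -0.19 to 0.38 without single libraries, below 0 without WT library 1, KO library 5 (-0.076) or KO library 6 (-0.18); the cause was not tested. Summed guides ranged from -0.87 to -0.33 (miR-99/100) and from -0.92 to 0.01 (miR-125) without 1 library. No paired analysis was possible because the genotypes share no replicate numbers. Low counts of miR-99a-3p and miR-125b-1-3p limit their precision.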
